A study of Mus musculus with 4 samples.

Results

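The 9 genes described here encode the enzymes that turn citrate into long-chain fatty acids, with 1 regulator of that process: Acly, Me1, Acaca, Acacb, Fasn, Elovl6, Scd1, Scd2 and Thrsp. They were chosen by name for their role, with earlier results of these data known, as 9 of the 37315 Ensembl gene identifiers in the input counts, and their m6A peaks were taken from lists of 22860 and 31856 peaks. The libraries came from inguinal white fat of male C57BL/6 mice of 23 weeks, all obese from a high-fat diet, and comprised 1 input library and 1 m6A immunoprecipitate (IP) for vehicle and the same for entacapone. Entacapone, a drug for Parkinson's disease, has also been reported to block FTO, an enzyme that removes m6A. The labels give no dose or duration, nor whether a library held 1 animal or a pool. No group had a replicate, so every difference below lies between libraries and cannot be assigned to the treatment.

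De novo lipogenesis starts when ATP citrate lyase cuts cytosolic citrate into acetyl-CoA. Acetyl-CoA carboxylase makes malonyl-CoA from it, fatty acid synthase joins the malonyl units into palmitate with NADPH as reductant, and elongases and desaturases finish the chain. In fat the genes are driven by insulin and carbohydrate through SREBP1c, ChREBP and LXR, and the pathway is known to be low on a high-fat diet. N6-methyladenosine (m6A) is a base modification of mRNA that proteins of the writer, eraser and reader classes set, remove and bind. It is enriched near stop codons but also lies elsewhere.

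The vehicle input held 24548212 gene-assigned counts and the entacapone input 33164576, or 1.35 times as many. Values are given as raw counts and as CPM, the count scaled to a fixed library total. Transcript lengths were not used, so counts of different genes show how many reads fell on each gene and are not compared as transcript levels. Each ratio has an exact conditional 95% interval (Clopper-Pearson) that covers counting error only. A gene was called higher or lower only where that whole interval lay beyond 1.5-fold. In whole tissue, fewer cells of a type and less RNA per cell cannot be told apart. The files do not pair other identifiers with gene names, so no marker of fat cells was read in the input. Of 39 markers in 9 lists of cell types, 16 (41.0%) carried a vehicle m6A peak and 23 (59.0%) an entacapone peak. Over all protein-coding genes these shares were 40.2% and 49%. For adipocytes these were 4 and 7 of 10 (Adipoq, Fabp4 and Cfd had none in either list), for endothelial cells 1 and 3 of 3, for macrophages 2 and 1 of 4 and for skeletal muscle 2 and 1 of 4. Lymphocyte markers had 3 and 3 of 4, fibroblast markers 1 and 2 of 3, and brown and beige adipocyte markers 0 and 1 of 4. Liver markers had 0 and 1 of 3, and those of skin and gland epithelium 3 and 4 of 4. A change in cell makeup was not tested.

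The promoter windows of the called genes are shown first, because 3 of the 4 called genes were matched in the table of RefSeq promoter windows used (build GRCm38.p6, the assembly named mm10) and because peaks lay just downstream of 2 of the listed starts. Each is the 250 bases before the listed start, 5′ to 3′ on the gene's strand. Capitals mark matches, on either strand, to any of 4 motifs of the factors known to act on lipogenic promoters: the CCAAT box (CCAAT), the GC box (GGGCGG), the E-box (CACGTG) and the sterol regulatory element (TCACCCCAC). The Fasn window lies at chr11:120824548-120824797 on the minus strand, the Elovl6 window at chr3:129532136-129532385 on the plus strand and the Acacb window at chr5:114165268-114165517 on the plus strand.
Fasn: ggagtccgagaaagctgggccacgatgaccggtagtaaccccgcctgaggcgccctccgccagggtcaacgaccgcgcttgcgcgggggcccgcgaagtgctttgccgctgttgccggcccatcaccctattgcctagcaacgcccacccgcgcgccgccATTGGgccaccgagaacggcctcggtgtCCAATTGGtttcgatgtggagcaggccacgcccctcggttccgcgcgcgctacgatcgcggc
Elovl6: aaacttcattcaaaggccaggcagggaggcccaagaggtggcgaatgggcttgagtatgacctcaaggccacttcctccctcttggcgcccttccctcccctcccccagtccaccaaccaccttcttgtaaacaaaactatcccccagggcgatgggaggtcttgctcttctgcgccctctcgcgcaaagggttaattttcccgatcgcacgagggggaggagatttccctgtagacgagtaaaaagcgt
Acacb: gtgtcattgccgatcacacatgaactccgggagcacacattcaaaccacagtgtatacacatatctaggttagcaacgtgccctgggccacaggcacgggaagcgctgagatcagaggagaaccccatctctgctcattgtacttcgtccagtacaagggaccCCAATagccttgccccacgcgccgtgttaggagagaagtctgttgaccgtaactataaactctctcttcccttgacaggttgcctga

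The Fasn window held 3 CCAAT matches, which begin 90, 62 and 59 bases before the listed start, the last pair overlapping on opposite strands. The Acacb window held 1 CCAAT match, 87 bases before the start, and the Elovl6 window none of the 4 motifs. Among all 32851 promoter windows in the table, 33.8% held a CCAAT match, 32.7% a GC box, 6.02% an E-box and 0.496% the sterol regulatory element. In all, 7 of the 9 genes had a window, since Scd1 and Scd2 were not matched. Of these, Acly held 4 GC box matches, the first window of Me1 3 and Thrsp 2 CCAAT matches. No window of the 7 genes held the E-box or the sterol regulatory element as spelled, which says only that these letters are not in those 250 bases. The windows of Fasn, Acaca and Acacb lie inside the RefSeq spans of these genes, so the bases before those spans were not searched.

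A smaller share of counts fell on these 9 genes in the entacapone library than in the vehicle library. The 9 genes took 3.63% of vehicle and 3.08% of entacapone counts, a ratio of 0.849 (95% interval 0.846 to 0.851). Scd1 alone made up 91.2% and 92.4% of those counts. Without Scd1 the other 8 genes took 0.319% and 0.234%, a ratio of 0.733 (0.726 to 0.740). The ratio was below 1 for 6 of the 9 genes and above 1 for 3.

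By the 1.5-fold rule, 3 of the 9 genes were called lower in the entacapone input (Scd2, Elovl6 and Fasn) and 1 was called higher (Acacb). Of all 13820 identifiers whose mean over both inputs reached 1 CPM, 2.52% were called lower and 5.6% higher. Among the 8825 identifiers with a mean of at least 400 counts, which include all 9 genes, these shares were 1.87% and 3.3%. This cut was not part of the plan, and the Elovl6 counts, 468 and 343, lie on either side of it. The median log2 ratio of the 9 genes was -0.37, against 0.08 over all identifiers tested, and 7 of the 9 lay below that overall median. With 9 genes from 1 library a treatment these counts describe the libraries and are not a test.

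**Figure D1:**
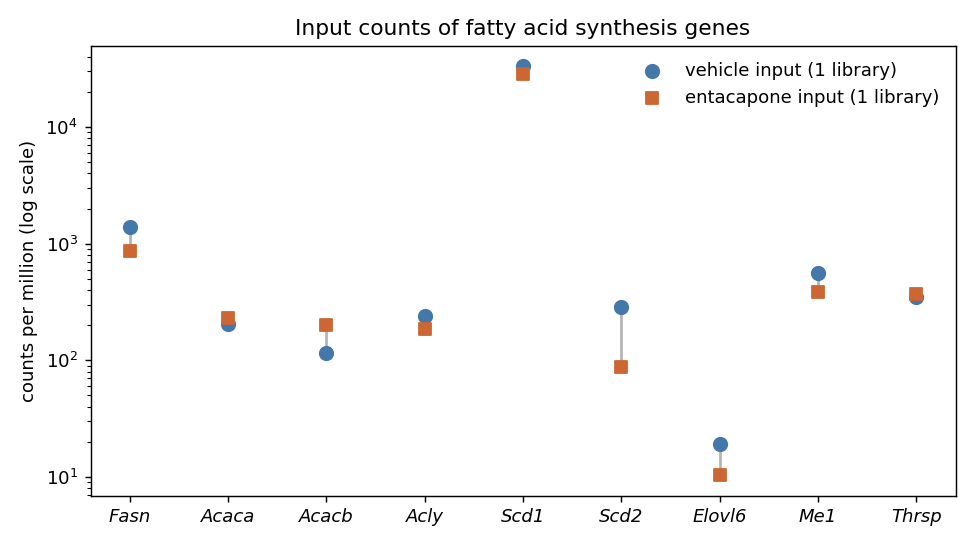
CPM (log axis) of each of the 9 genes in the vehicle input (blue circles) and the entacapone input (orange squares), with 1 library each and a grey line joining the pair. Scd2 shows the widest gap, from 288 to 87.3, Acacb goes from 117 to 200.2, and Thrsp nearly coincides at 349.6 and 369.

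Among the enzymes that supply acetyl-CoA and NADPH, both ratios were below 1 but neither gene was called. Acly, ATP citrate lyase (ENSMUSG00000020917, chr11:100476352-100528000), had 5931 vehicle and 6206 entacapone counts, or 242 and 187 CPM. The Acly value was 1.29-fold lower (1.25 to 1.34) in the entacapone input. Me1, the cytosolic malic enzyme that makes NADPH (ENSMUSG00000032418, chr9:86581363-86695914), had 13867 and 12805 counts, or 565 and 386 CPM. Me1 was 1.46-fold lower (1.43 to 1.499), just inside the threshold. With edgeR's TMM factors, which lowered every log2 ratio by 0.09, Me1 was 1.56-fold lower and was called lower, as were 3.23% of all identifiers.

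Of the pair of acetyl-CoA carboxylases, Acacb was called higher and Acaca was not called. Acaca encodes the cytosolic carboxylase, whose malonyl-CoA feeds fatty acid synthesis (ENSMUSG00000020532, chr11:84129635-84401651). It had 5005 vehicle and 7621 entacapone counts, or 204 and 230 CPM, a ratio of 1.13 (1.09 to 1.17). Acacb encodes the carboxylase at the outer mitochondrial membrane, whose malonyl-CoA restrains fatty acid import for oxidation (ENSMUSG00000042010, chr5:114146321-114250761). It had 2863 and 6640 counts, or 117 and 200.2 CPM, a ratio of 1.72 (1.64 to 1.79). Of the 13820 identifiers tested, 1064 had a higher ratio than Acacb and 5224 a higher ratio than Acaca. The ratio of Acacb to Acaca counts, which does not depend on library scaling or gene length when set between libraries, went from 0.572 to 0.871, a 1.52-fold change (1.44 to 1.61 from a normal approximation on the log scale). A protein-coding gene model, Gm11437, lies inside the Acaca span, and the library kit does not keep strand, so reads of overlapping genes could not be separated by strand.

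Fasn, fatty acid synthase (ENSMUSG00000025153, chr11:120805958-120825166), was lower in the entacapone input. It had 34460 vehicle and 28753 entacapone counts, or 1404 and 867 CPM. That is 1.62-fold lower (1.59 to 1.64), and 456 of 13820 identifiers had a lower ratio. Per read of Acaca, which acts just before it, Fasn went from 6.89 to 3.77 counts, 1.82-fold less (1.76 to 1.90). Acly and Fasn did not move in step: the count ratio of Acly to Fasn went from 0.172 to 0.216, 1.25 times as high.

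Elovl6, the elongase that lengthens palmitate to stearate (ENSMUSG00000041220, chr3:129532386-129638495), had the fewest counts of the 9 genes. It had 468 vehicle and 343 entacapone counts, or 19.1 and 10.3 CPM. It was 1.84-fold lower (1.60 to 2.13) in the entacapone input, with the widest interval of the 9 genes, and 297 identifiers had a lower ratio.

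The stearoyl-CoA desaturases put the first double bond into saturated acyl-CoA, and the pair described here differed in size of change. Scd1 (ENSMUSG00000037071, chr19:44394450-44407709), the main desaturase of fat, was the most counted of all identifiers in both libraries. It had 813891 vehicle and 945469 entacapone counts, or 3.32% and 2.85% of all counts, 1.16-fold lower (1.16 to 1.17). Scd2 (ENSMUSG00000025203, chr19:44293676-44306864), a close paralogue, had 7080 and 2896 counts, or 288 and 87.3 CPM. Scd2 was 3.30-fold lower (3.16 to 3.45), the only one of the 9 genes with an interval beyond 2-fold, and 102 of 13820 identifiers had a lower ratio. In rank by counts it went from 476 to 2123, whereas Scd1 stayed at 1. Scd2 counts were 0.870% of Scd1 counts in the vehicle library and 0.306% in that of entacapone. How reads shared by these paralogues were counted is not stated in the labels, so a small share of Scd1 reads placed on Scd2 would weigh on the Scd2 value. Its part in the result was not tested.

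Thrsp (ENSMUSG00000035686, chr7:97412933-97417550), a thyroid hormone-responsive protein that acts on the lipogenic programme and on acetyl-CoA carboxylase, had nearly equal values. It had 8581 and 12239 counts, or 349.6 and 369 CPM, a ratio of 1.06 (1.03 to 1.09). That lay near the middle of all identifiers, with 6853 of 13820 below it. With TMM factors the Thrsp log2 ratio changed sign, from 0.08 to -0.01. Fasn went from 4.02 to 2.35 counts per Thrsp count, 1.71-fold less (1.66 to 1.76).

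**Figure D2:**
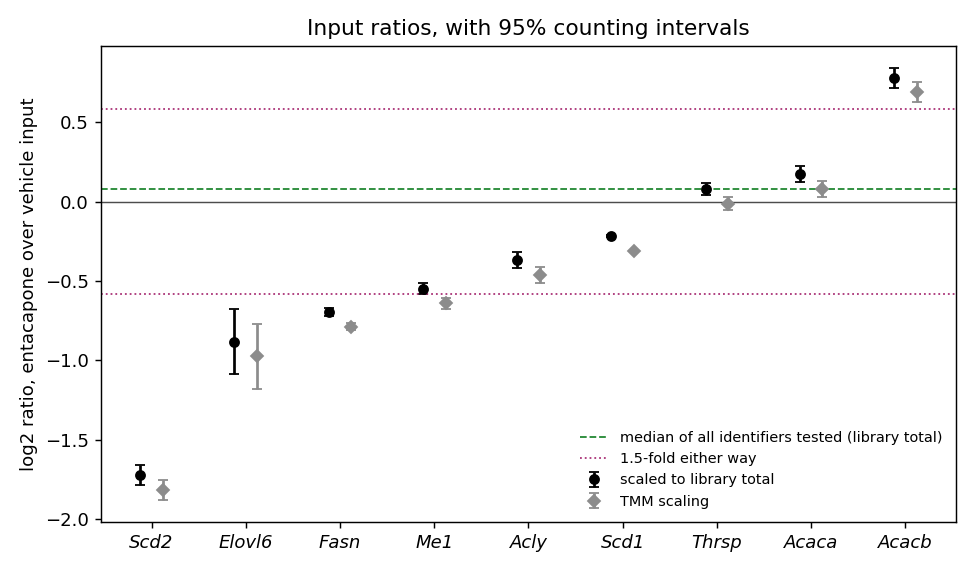
The log2 ratio of entacapone over vehicle input for each gene, ordered by size, scaled to the library total (black circles) or with TMM factors (grey diamonds). Bars are 95% counting intervals, dotted lines mark 1.5-fold and the dashed green line the median of all identifiers tested (0.08). Scd2 lies lowest at -1.72 and Acacb highest at 0.78, and the Me1 interval crosses beyond the lower dotted line only with TMM factors.

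Peaks of m6A were listed in some of these genes and not in others. The fold of a peak is the authors' value, read here as IP over input enrichment, and ranks peaks within its own list. Of the 9 genes, 2 (Acaca and Acacb) carried a vehicle peak and 3 (these and Elovl6) an entacapone peak, with 5 vehicle and 12 entacapone peaks in all. Over 21900 protein-coding genes, 40.2% carried a vehicle peak and 49% an entacapone peak. Those genes were not limited to ones with input counts, and 9 genes are too few to read a difference from these shares. Acaca and Elovl6 had more entacapone than vehicle peaks, as did 28.5% of protein-coding genes. Fasn, Acly, Scd1, Scd2, Me1 and Thrsp had no peak in either list, like 10628 of the 21900 genes, which does not show that their transcripts lack m6A.

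The genes with peaks were neither those with most counts nor those of short span. Acaca, Acacb and Elovl6 had fewer vehicle counts (468 to 5005) than every one of the 6 genes without a peak (5931 to 813891). With 2896 entacapone counts, Scd2, without a peak, had fewer than Acaca and Acacb. The 3 genes with a peak are among the 4 whose span exceeds 100 kb, with 272, 104 and 106 kb for Acaca, Acacb and Elovl6. The 4th is Me1, at 115 kb. Among all protein-coding genes 58.7% of those over 100 kb and 37.9% of the shorter ones carried a vehicle peak, and 67.4% and 46.7% an entacapone peak.

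Of the 4 vehicle peaks in Acacb 3 were shared between the lists, and no peak of Acaca or Elovl6 was. Of the 5 vehicle peaks, 2 had no overlap in the entacapone list, against 21.3% of all vehicle peaks. Of the 12 entacapone peaks, 9 had no overlap in the vehicle list, against 44.1% of all entacapone peaks. Of those 9, 4 lay in Acaca, 4 in Elovl6 and 1 in Acacb.

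Acacb carried 4 peaks in each list, of which 3 were shared. The first shared peak lay at chr5:114165766-114165965 in the vehicle list (fold 3.46) and chr5:114165765-114165958 in the entacapone list (fold 2.69), overlapping by 192 bp. It began 248 bases (vehicle) and 247 bases (entacapone) past the start whose promoter window is printed above. That start lies inside the RefSeq span of Acacb, the peak centre being 19.5 kb from the start of the span. Near the 3′ end a shared pair lay at chr5:114249714-114249870 (fold 2.30) and chr5:114249720-114249871 (fold 2.13), centred 0.969 and 0.966 kb from the end of the span. The last shared pair, at chr5:114250363-114250507 (fold 2.53) and chr5:114250189-114250503 (fold 1.76), overlapped by 140 bp, and the entacapone peak was wider, 314 against 144 bp.

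The remaining Acacb peaks did not overlap but were neighbours. The vehicle peak at chr5:114176747-114176819 had a fold of 6.81, above 93.7% of its list. The entacapone peak at chr5:114175962-114176038 had a fold of 3.10, the median of its list, and lay 709 bp away. These exact folds were those of 9 peaks of the vehicle list and 90 of the entacapone list. Acacb, called higher in the entacapone input, thus had as many peaks in the entacapone list as in the vehicle list.

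Acaca went from 1 vehicle peak to 4 entacapone peaks with none shared. The vehicle peak, chr11:84401074-84401124, was 50 bp wide with a fold of 1.94, lay 0.552 kb from the 3′ end of the span and stood above 6.37% of its list. The entacapone peaks at chr11:84399725-84399870, chr11:84399982-84400200 and chr11:84401479-84401574 had folds of 1.69, 1.81 and 1.83, above 3.12%, 6.78% and 7.39% of their list. They lay 1.85, 1.56 and 0.124 kb from the 3′ end, on both sides of the vehicle peak, at least 355 bp away. All 4 of these peaks near the 3′ end therefore had low folds within their lists. The remaining entacapone peak, chr11:84238229-84238278, lay 109 kb into the span with a fold of 5.30. It had the minimum width in the list, 49 bp, and its exact fold was that of 269 peaks of the list.

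Elovl6 had 0 vehicle and 4 entacapone peaks, and its input CPM was lower in the entacapone library. Acaca and Elovl6 were among 809 of the 21900 protein-coding genes (3.69%) with at least 3 more entacapone than vehicle peaks. The first peak, chr3:129532446-129532533 (fold 4.59), began 60 bases past the listed start and so lay directly downstream of the promoter window printed above. The others, at chr3:129633129-129633224 (fold 3.27), chr3:129633567-129633672 (fold 3.51) and chr3:129634998-129635052 (fold 4.48), lay 5.32, 4.88 and 3.47 kb before the 3′ end of the span. The 4 folds stood above 54.5% to 79.1% of the list. In the order given, the exact folds were those of 232, 81, 82 and 45 peaks of the list in all. Elovl6 had 468 vehicle and 343 entacapone input counts over its whole length, and the part of read depth in listing these peaks was not tested.

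**Figure D3:**
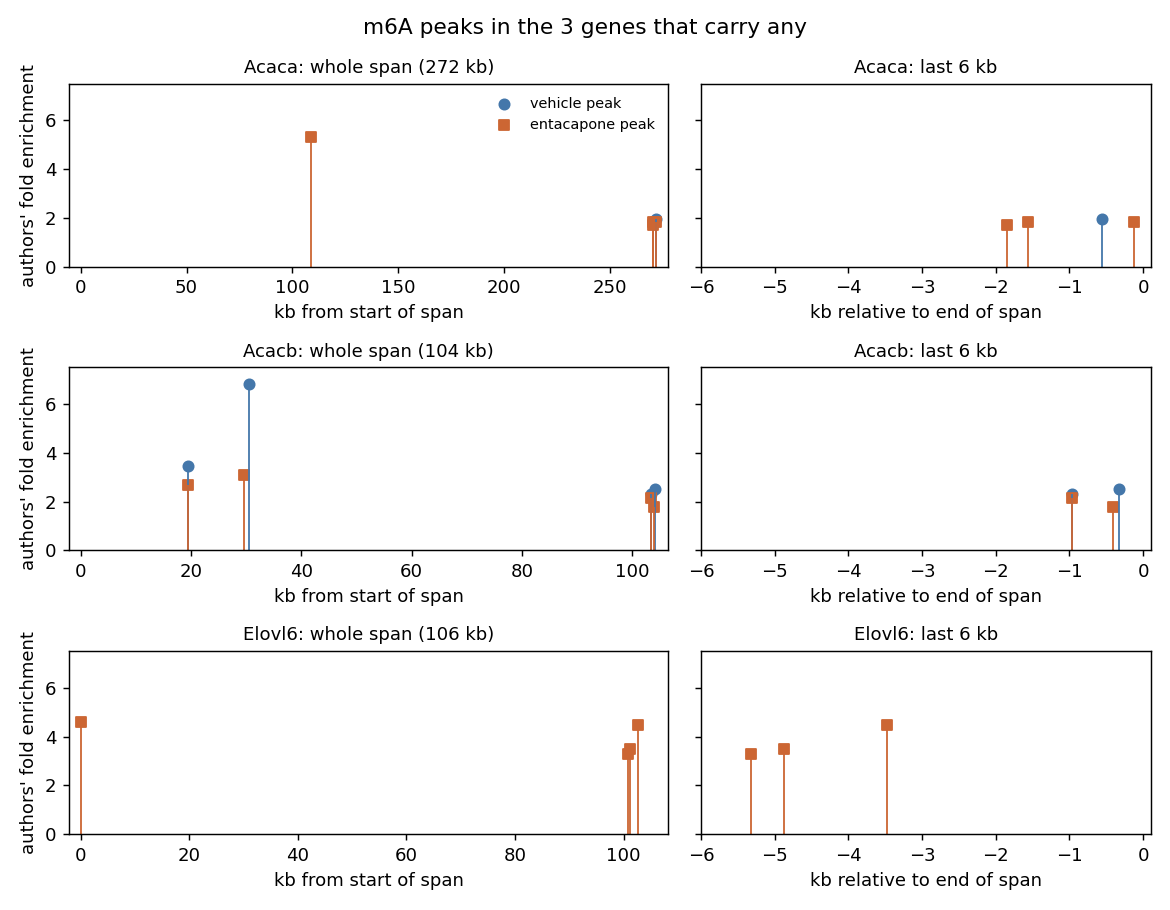
Position and authors' fold enrichment of every m6A peak in Acaca, Acacb and Elovl6, along the whole gene span (left, kb from its start) and in its last 6 kb (right), for vehicle (blue circles) and entacapone (orange squares) with 1 list each. In Acacb 3 pairs coincide, in Acaca the peaks of the lists lie apart, and Elovl6 has entacapone peaks alone, 1 at the start and 3 between 3.47 and 5.32 kb from the end.

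The fold cuts below are applied alike to both lists, although their fold scales differ: the median fold was 3.32 in the vehicle and 3.10 in the entacapone list, with 1837 and 4330 peaks under a fold of 2. The counts that follow are therefore given side by side and not compared. At a fold of at least 2, Acaca kept 0 vehicle and 1 entacapone peak, Acacb 4 and 3, and Elovl6 0 and 4. At a fold of at least 4, Acaca had 0 and 1, Acacb 1 and 0, and Elovl6 0 and 2. With the 22860 peaks of largest fold from each list, Acaca had 1 and 1, Acacb 4 and 2, and Elovl6 0 and 4. That last setting removes entacapone peaks below a fold of 2.39 and no vehicle peak. Each of these settings only removes peaks, so Elovl6, with no vehicle peak to begin with, and Acacb, in the last setting, could not have turned the other way.

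Genes around these enzymes were read from 5 lists of 64 genes in all, by their peaks alone. Of the 64 genes, 26 carried a vehicle peak and 37 an entacapone peak. More entacapone than vehicle peaks were found in 20 and fewer in 2, with 15 equal and 27 without a peak. The 20 genes are a share of 31.3%, near the 28.5% of all protein-coding genes.

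The list of acetyl-CoA carboxylase regulators had 7 of 12 genes with a vehicle peak and 11 of 12 with an entacapone peak, against 40.2% and 49% of protein-coding genes. Mid1ip1, whose product drives assembly of the carboxylase into filaments, had 0 vehicle and 3 entacapone peaks. Prkag2, a regulatory subunit of the AMP-activated kinase that switches the carboxylase off, also had 0 and 3. Mlycd, malonyl-CoA decarboxylase, had 0 and 2, with a largest fold of 1.65 where the lowest of the list is 1.49. Prkaa1 had the same difference, with 4 and 6 peaks, but fell outside the limit of 3 genes a list. In all, 7 of the 12 had more entacapone than vehicle peaks, against 28.5% of protein-coding genes. This is 1 of 5 lists, no test was made of it, and nothing particular to it is read from these counts.

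The transcriptional control list went from 7 to 9 of 12 genes with a peak. Mbtps1, the protease that makes the first cut in releasing SREBP, had 2 vehicle and 5 entacapone peaks. Chosen after their values were seen, Srebf1, which encodes SREBP1, had 0 and 1, and Mlxipl, which encodes ChREBP, 2 and 2, both shared. Carbon and NADPH supply had 2 and 4 of 16 genes with a peak. The elongation and desaturation list went from 5 to 8 of 17 genes, and mitochondrial fatty acid synthesis had 5 of 7 in each list. The 2 genes with fewer entacapone peaks were both mitochondrial and were named after their values were seen: Oxsm, the ketoacyl synthase, had 4 and 3, and Acsf3, a malonyl-CoA synthetase, 2 and 1.

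**Figure D4:**
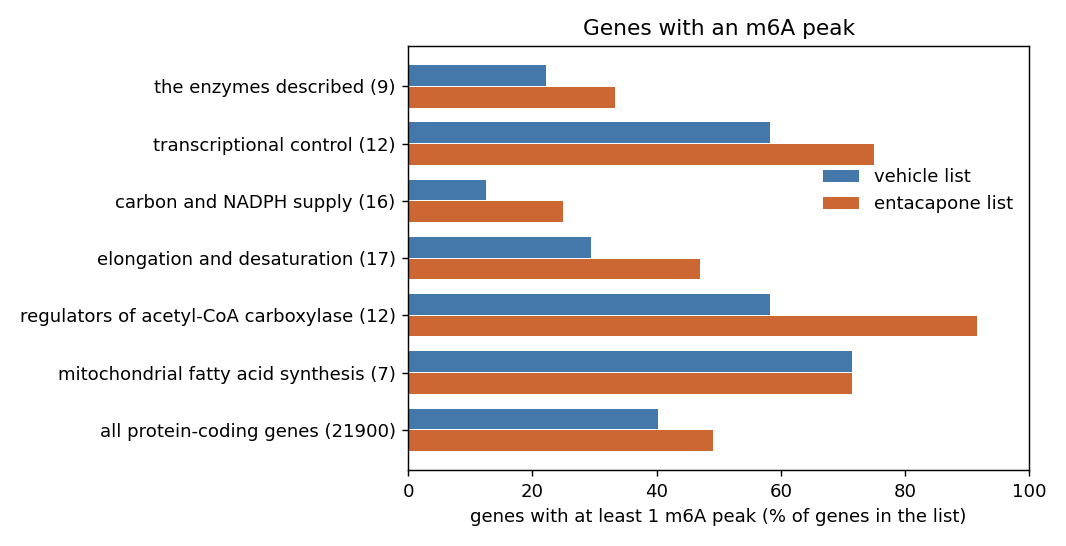
Percentage of genes with at least 1 m6A peak in the vehicle list (blue) and the entacapone list (orange), for the 9 enzyme genes, 5 lists of related genes and all 21900 protein-coding genes, with the number of genes in brackets. The 9 genes stand at 22.2% and 33.3%, all protein-coding genes at 40.2% and 49%, and the carboxylase regulators at 58.3% and 91.7%. No difference between these shares was tested.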

How the data were processed

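An anti-m6A antibody was used on fragmented poly(A) RNA, and input and IP libraries were made with a TruSeq kit, per the labels' protocols. Per the submitters' processing notes, TopHat2 2.1.1, MACS2 and mm10 were used. The read counter, annotation and peak threshold are not stated there. The deposited input values are raw counts per Ensembl identifier. The deposited peak values have no header and were read as a linear fold enrichment (a ratio), since the lowest value is 1.49.

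Counts were scaled to the library total, with a prior of 0.5 counts in log2 ratios. Identifiers with a mean of at least 1 CPM were tested together. The calculations were tested on simulated counts with counting error alone. Those hold no variation between animals or libraries, so the test checks the arithmetic and not the calls. The symbols of the 9 identifiers came with the selection of the genes. A peak was given to the protein-coding span (RefSeq GRCm38.p6, the shorter where several overlap) that holds its midpoint, and 1 bp of overlap counted as shared (bedtools 2.31.1). Exons were not used. Scaling alternatives used edgeR 4.0.16 and DESeq2 1.42.0 (R 4.3.3). Of the related lists, genes differing by at least 2 peaks were named, at most 3 a list. The members, lists and motifs were chosen with earlier results of these data known. The planned search for m6A motifs under peaks was not run, since no genome sequence was used.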

Additional observations from a re-analysis of the deposited data

How the results depend on the processing

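Scd2, Elovl6 and Fasn were called lower and Acacb higher with every scaling tried and with a 99% interval. Of all identifiers tested, 2.52% to 3.33% were called lower and 4.67% to 5.60% higher across the scalings. With the 99% interval these shares were 2.20% and 4.74%. Beyond 2-fold, 0 of the 9 genes were called higher and 1 lower (Scd2), against 2.48% and 1.21% of all 13820 identifiers tested. The median log2 ratio of the 9 genes, -0.37, was -0.46 with TMM factors, -0.47 with DESeq2 size factors and -0.43 with upper-quartile factors. Me1 was also called lower with TMM and DESeq2 factors (log2 ratios -0.64 and -0.65), where 3.23% and 3.33% of all identifiers were called lower. DESeq2 factors lowered all log2 ratios by 0.10 and changed the calls over all identifiers from 774 higher and 348 lower to 646 and 460, or from 69.0% to 58.4% higher. At a fold of at least 4 the 9 genes held 1 vehicle peak in 1 gene, not shared, and 3 entacapone peaks, none shared. At a fold of at least 2, 1 gene had a vehicle peak. With entacapone peaks ranked by fold and limited to as many as the vehicle list holds, the 9 genes had 7 entacapone peaks, of which 6 had no vehicle overlap, and 4 of the 5 vehicle peaks had no entacapone overlap. In another setting a peak was shared only where the overlap was at least as long as the rest of that peak. There 10 entacapone and 2 vehicle peaks of the 9 genes were not shared. The 314 bp entacapone peak of Acacb, with an overlap of 140 bp, was then not shared. Shares over all peaks are not given for these peak settings, so their counts are not read as a result about the 9 genes. Limiting the entacapone list removed no vehicle peak, so vehicle peaks could only lose overlaps there. A library total without Scd1 was added after seeing the data and changed no call. No paired analysis was possible because each group has 1 library.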
